A study of Mus musculus with 6 samples.

Results

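The solute carrier family 6 (SLC6) holds membrane transporters that move amino acids, creatine and transmitters into cells together with sodium and chloride. Described here are 9 of its genes, Slc6a20a, Slc6a13, Slc6a11, Slc6a7, Slc6a15, Slc6a17, Slc6a9, Slc6a6 and Slc6a8, of 18193 genes named on the array. They were taken from probe sets that name exactly 1 gene, and the family was chosen because Slc6a20a is very high in the S100a10 arrays. Differences between the lines are therefore given for the 9 genes as a description, with standard errors (SE) and no p-value. Calls from the fit across all genes are counted for them only beside the share of all genes called, and support nothing. The 9 genes have 17 probe sets, of which 13 had a mean intensity of at least 50 in at least 1 group. These 13 cover 8 genes, and Slc6a11 lay under 50 on all arrays.

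The arrays measured RNA from ribosomes pulled down from mouse cortex, a method named TRAP. A transgene on a bacterial artificial chromosome (BAC) puts a tagged ribosomal protein into cells that use a driver gene, and the tag recovers the messengers being translated there. The S100a10 group is line ES691, driven by S100a10, and the Glt25d2 group is line DU9, driven by Glt25d2, now named Colgalt2; each has 3 biological replicates on 1 array each. Animals of both groups carry a BAC transgene, were untreated, and had been crossed from FVB onto C57BL/6 for 3 to 5 generations; age and sex are not in the labels. Each group is 1 transgenic line, and the series text says that the S100a10 BAC also marks some cells that are not neurons, for which its authors advise a restricted probe set list that was not used here. The labels do not say how many animals made up a replicate, so p-values measure the spread between these samples.

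The driver genes stood on the side of their labels. S100a10 had a log2 difference (S100a10 minus Glt25d2) of 2.25 (SE 0.14, limma adjusted p = 1.07e-04). Colgalt2 was at 11.4 to 11.7 on S100a10 arrays and at 827 to 1352 on Glt25d2 arrays. Colgalt2 passed the intensity limit given above only through the Glt25d2 arrays and so had to differ. No p-value is therefore given for Colgalt2. 2 features of the table bear on every value below. The deposited values share their distribution within a group and not between groups: the median intensity was 35.5 to 35.8 on S100a10 arrays and 20.4 to 21.3 on Glt25d2 arrays, and the log2 differences over all genes had a median of 0.56. This median moved to -0.018 with quantile normalization of all 6 arrays and to -0.21 with each array centred on its median. Glt25d2 replicate 3 also stood apart: relative to the geometric mean of Glt25d2 replicates 1 and 2 it was lower by more than 4-fold in 993 of 11821 genes (8.40%) and higher by as much in 2. Values after quantile normalization and without this array are therefore given beside the deposited ones.

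Amino acid transporters of the brain divide the work by cell type. Neurons use them to recover and load amino acids at synapses, astrocytes to clear GABA and glycine, and the cells of the meninges, the membranes around the brain, to exchange solutes between brain and cerebrospinal fluid. Proline, glycine, GABA, taurine, betaine and creatine are the best known cargoes of the genes described here. In bulk samples such as these, fewer cells of a type and less RNA per cell cannot be told apart.

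In outline, Slc6a20a and Slc6a13 stood at high intensity on S100a10 arrays and near background on Glt25d2 arrays. The creatine transporter gene Slc6a8 and the glycine transporter gene Slc6a9 were higher in S100a10 by smaller amounts, whereas the neuronal genes Slc6a7, Slc6a15 and Slc6a17 overlapped between the groups. In the fit across all genes (limma, Benjamini-Hochberg adjusted p at most 0.05), 4 of the 8 measured genes were called higher in S100a10 and 0 lower, with 5 and 0 at an unadjusted p under 0.05. Of all genes tested, 44.7% were called higher and 4.59% lower. The 4 were Slc6a20a, Slc6a13, Slc6a8 and Slc6a9. Nothing is read from this count, since the genes were chosen from the same contrast and Slc6a20a and Slc6a13 passed the limit of 50 only through S100a10. Read as a limit on both groups, the limit would leave these 2 genes out. After quantile normalization 3 were called higher, without Slc6a9, beside 18.7% of all genes, and after centring the same 3, beside 16.6% (31.8% lower). Without Glt25d2 replicate 3 there were 5, with Slc6a6 added, beside 55.9%.

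**Figure D1:**
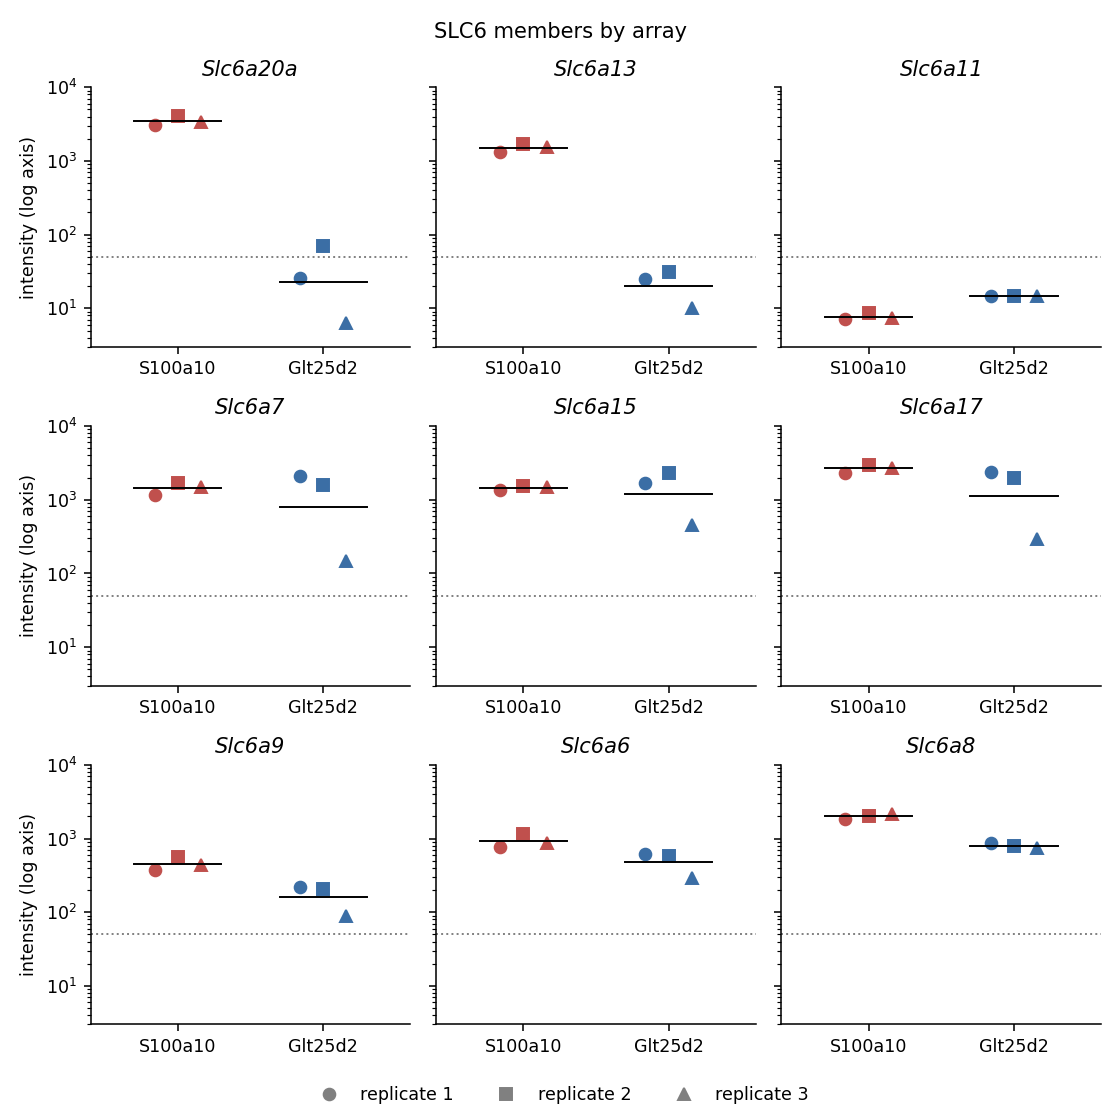
Intensity (log axis) of the 9 SLC6 genes in the 3 S100a10 arrays (left, red) and the 3 Glt25d2 arrays (right, blue), each gene by the probe set used for it. Marker shapes give the replicate, black bars the geometric mean of the group, and the dotted line the limit of 50. Slc6a20a and Slc6a13 separate widely, Slc6a11 stays under 50, and Glt25d2 replicate 3 (triangle) is the lowest array for Slc6a7, Slc6a15 and Slc6a17. Probe sets differ in brightness, so levels are not comparable between panels.

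Slc6a20a encodes a sodium-dependent carrier of proline and related imino acids. Its intensity was 3047, 4097 and 3378 in the S100a10 arrays, against 26.2, 70.9 and 6.24 in the Glt25d2 arrays. All S100a10 arrays lay far above all Glt25d2 arrays, of which 2 lay under 50. The means were 3507 ± 537 in S100a10 and 34.4 ± 33.1 in Glt25d2 (SD, n = 3 each). The log2 difference was 7.27 (SE 0.86), or 6.71 above that of the median gene. The Glt25d2 values are near background, and the difference was 5.95 (SE 0.19) with values under 50 set to 50. It was 6.83 (SE 0.92) after quantile normalization, 6.34 (SE 0.39) without Glt25d2 replicate 3, 5.71 (SE 0.39) with both changes, and 8.09 (SE 0.63) without Glt25d2 replicate 2, the brightest of its group.

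In the annotation the next gene to Slc6a20a is its close relative Slc6a20b. Both Slc6a20b probe sets were at background, with the brighter at 9.33, 9.44 and 10.1 in S100a10 and at 7.37 in each Glt25d2 array. Whether the probe sets of these relatives also take up each other's messenger was not tested. So 1 gene of the adjacent pair was far above 50 in S100a10, and the other was under 50 on every array. The bases before the start of the 2 genes are shown because the neighbours differ so much in signal. The sequences, 250 bases before the annotated start in RefSeq (GRCm38.p6), are printed 5′ to 3′ on the gene's strand, with each CG dinucleotide in capitals. Slc6a20a lies at chr9:123678833-123679082 on the minus strand, and Slc6a20b at chr9:123632539-123632788 on the minus strand.
Slc6a20a: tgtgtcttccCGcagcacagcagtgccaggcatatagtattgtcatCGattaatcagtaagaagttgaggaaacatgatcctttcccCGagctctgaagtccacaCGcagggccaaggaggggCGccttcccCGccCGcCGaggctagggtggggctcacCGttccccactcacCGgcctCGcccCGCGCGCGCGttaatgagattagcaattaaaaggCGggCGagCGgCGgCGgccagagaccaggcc
Slc6a20b: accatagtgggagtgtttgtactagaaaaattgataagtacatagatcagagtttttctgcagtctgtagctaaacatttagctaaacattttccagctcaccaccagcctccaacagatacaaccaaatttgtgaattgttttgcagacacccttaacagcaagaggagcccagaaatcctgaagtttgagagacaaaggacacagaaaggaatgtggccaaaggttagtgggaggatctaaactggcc
The Slc6a20a stretch held 21 CG dinucleotides and 61.2% G or C, and the Slc6a20b stretch held 0 and 41.6%. Over the 32851 windows of the same length in the table the median was 6 (quartiles 2 and 16), and 83.7% had fewer than Slc6a20a. The GC box letters GGGCGG, which hold a CG themselves and were sought on both strands, occurred 1 time before Slc6a20a and 0 times before Slc6a20b, and in 32.7% of all windows. The letters TATAAA (12.4% of windows) and the forkhead letters TGTTTAC (3.17%) were found in neither stretch, which says nothing of the factors that may bind there.

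Slc6a13 encodes a carrier of GABA and taurine known from the meninges, liver and kidney. Its intensity was 1334, 1679 and 1568 in the S100a10 arrays, against 24.7, 31.2 and 10.2 in the Glt25d2 arrays. The groups did not overlap, and every Glt25d2 array lay under 50. With means of 1527 ± 176 in S100a10 and 22.0 ± 10.7 in Glt25d2 (SD, n = 3 each), Slc6a13 was at least 30.4-fold higher in S100a10 when set against 50. Genes given with such a bound here and below passed the limit only through the brighter group and so had to differ. The bound holds for the deposited scaling, and after quantile normalization some of these genes differed by less than their bound. The fitted difference was 6.26 (SE 0.43), and 5.71 (SE 0.48) after quantile normalization, 5.77 (SE 0.16) without Glt25d2 replicate 3 and 5.10 (SE 0.18) with both changes.

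The gene beside Slc6a13 is Slc6a12, which encodes the carrier of betaine and GABA and is not among the 9. Its intensity was 113, 135 and 124 in S100a10, against 5.15, 5.27 and 5.27 in Glt25d2. Slc6a12 was at least 2.47-fold higher in S100a10, and its log2 difference was 4.06 after quantile normalization. It passed the limit of 50 only through S100a10 and so had to differ, and no p-value is given for it. Of its 3 Glt25d2 values 2 are equal, which understates the spread. This happens in 46.8% of probe sets in the Glt25d2 group and in 0.979% in S100a10. Both genes of this pair were thus above 50 on all S100a10 arrays and under 50 on all Glt25d2 arrays. The 250 bases before the first annotated start of each are shown for comparison, in the same form; Slc6a13 lies at chr6:121300038-121300287 on the plus strand and Slc6a12 at chr6:121342324-121342573 on the plus strand.
Slc6a13: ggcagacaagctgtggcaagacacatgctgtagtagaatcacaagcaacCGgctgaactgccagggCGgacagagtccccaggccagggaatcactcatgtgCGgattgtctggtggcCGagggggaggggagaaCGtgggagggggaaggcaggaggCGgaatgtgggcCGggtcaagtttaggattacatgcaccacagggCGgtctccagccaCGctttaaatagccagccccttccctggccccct
Slc6a12: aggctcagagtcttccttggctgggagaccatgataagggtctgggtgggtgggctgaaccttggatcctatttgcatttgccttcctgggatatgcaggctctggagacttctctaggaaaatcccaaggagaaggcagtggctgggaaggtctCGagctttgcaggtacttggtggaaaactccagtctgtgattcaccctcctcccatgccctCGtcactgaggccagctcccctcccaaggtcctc
The table lists 3 windows for Slc6a13 and 5 for Slc6a12, and the arrays do not tell which start is in use. These stretches held 9 and 2 CG dinucleotides. The GC box letters occurred 2 times before Slc6a13 and 0 times before Slc6a12, and neither stretch held TATAAA or TGTTTAC. Of the 9 genes, 5 have a window in the table; Slc6a6, Slc6a7, Slc6a8 and Slc6a15 have none there.

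Genes that flank the pairs were looked up after the data were seen. Next to the Slc6a20 pair, Sacm1l, a lipid phosphatase gene, differed by 0.041 (limma adjusted p = 0.795) and Lztfl1 by 0.30 (limma adjusted p = 0.0846). Farther out, Limd1, a LIM domain protein gene, was at least 6.96-fold higher in S100a10 and Ccr9, a chemokine receptor gene, at least 1.64-fold, both under 50 on every Glt25d2 array and measured only through S100a10. Around the Slc6a13 pair, Usp18, also measured only through S100a10, was at least 1.91-fold higher and Iqsec3, a synaptic protein gene, rose by 0.93 (limma adjusted p = 0.00154), whereas Tuba8 at 0.62 did not pass (limma adjusted p = 0.0804). After quantile normalization Iqsec3 at 0.35 did not pass either (adjusted p = 0.0864). In that fit the log2 differences were 2.49 for Limd1 and 0.82 for Usp18, both below their bounds, and 2.71 for Ccr9. Flanking genes were thus higher in S100a10 in some cases and not in others.

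**Figure D2:**
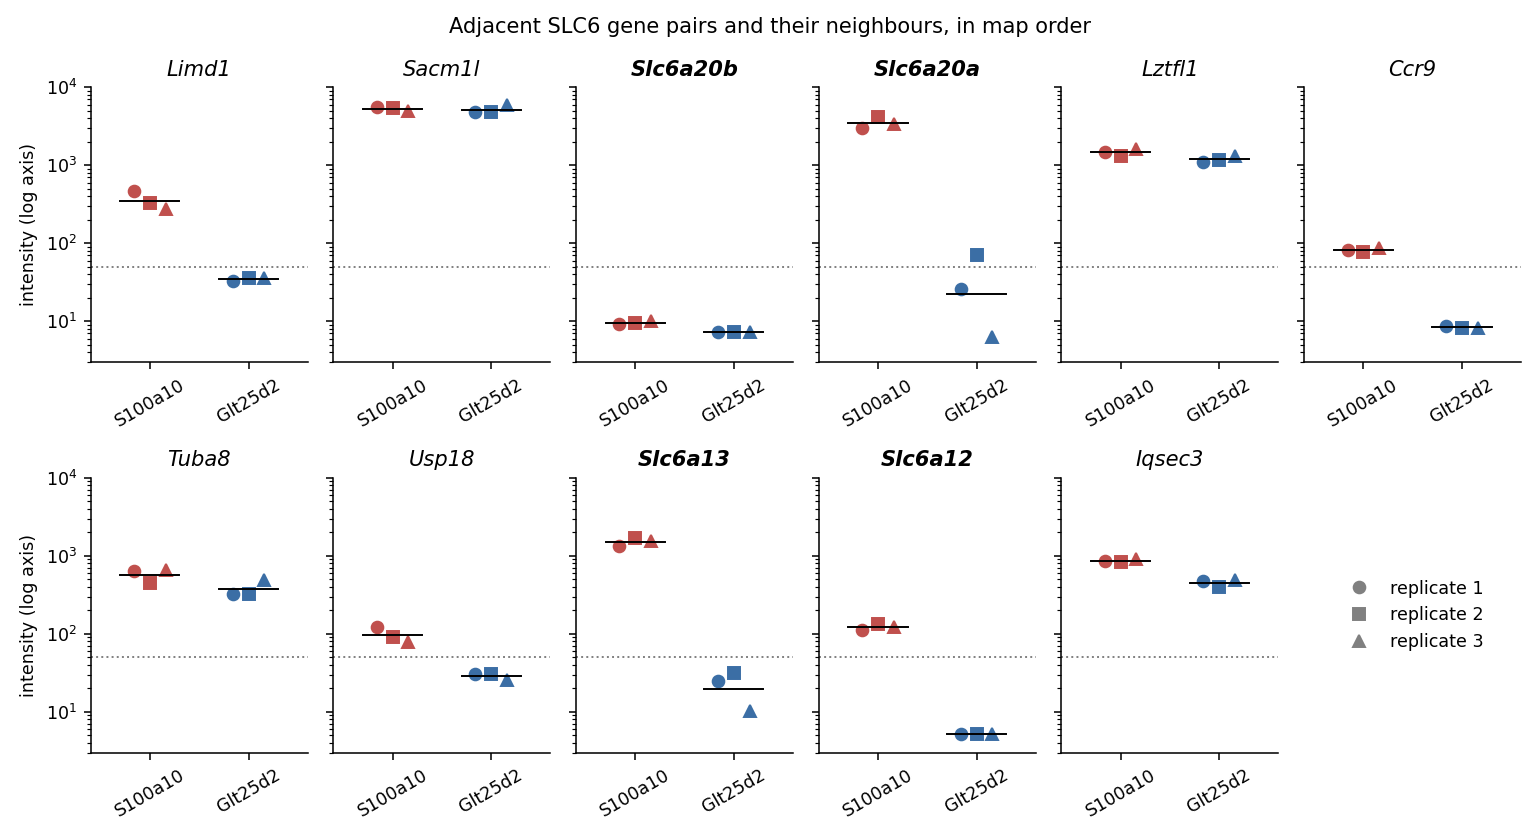
Intensity (log axis) of the adjacent pairs Slc6a20b and Slc6a20a (top row) and Slc6a13 and Slc6a12 (bottom row), in bold, with the nearest protein-coding genes in map order that were measured. The 3 S100a10 arrays are on the left of each panel and the 3 Glt25d2 arrays on the right, black bars are geometric means and the dotted line is 50. Slc6a20b is under 50 on every array, while Slc6a20a, Slc6a13 and Slc6a12 are above 50 on every S100a10 array.

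Slc6a11 encodes the GABA carrier typical of astrocytes. Its brighter probe set was at 7.11, 8.77 and 7.43 in S100a10 and at 14.7 in each Glt25d2 array, and the other lay at 7.36 or lower on every array. No level of this gene was measured above 50 in either line, so no fold is given.

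Slc6a7, Slc6a15 and Slc6a17 are known mainly from neurons. Slc6a7 encodes the brain proline carrier of excitatory nerve endings. Its intensity was 1176, 1671 and 1496 in S100a10, against 2083, 1585 and 148 in Glt25d2. The S100a10 arrays lay among the first 2 Glt25d2 arrays or below them, and far above the third. The log2 difference was 0.86 (SE 1.03) with all arrays and -0.34 (SE 0.19) without Glt25d2 replicate 3.

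Slc6a15, a carrier of branched-chain amino acids and proline, had 1337, 1557 and 1505 in S100a10, against 1690, 2299 and 452 in Glt25d2. Every S100a10 array lay below Glt25d2 replicates 1 and 2 and above replicate 3. The difference was 0.28 (SE 0.61), and it took a negative sign after quantile normalization at -0.20 (SE 0.56) and without Glt25d2 replicate 3 at -0.43 (SE 0.16).

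Slc6a17 encodes a carrier of neutral amino acids in synaptic vesicles. Its brightest probe set had 2339, 2970 and 2728 in S100a10, against 2395, 1986 and 298 in Glt25d2, a difference of 1.25 (SE 0.81), or 0.29 (SE 0.15) without Glt25d2 replicate 3. Its other probe sets did not give 1 answer. One had 342, 469 and 390 in S100a10, against 203, 168 and 39.8 in Glt25d2, and did not overlap (difference 1.84, SE 0.63, or 1.11 without Glt25d2 replicate 3). The third had 130, 193 and 163 in S100a10, against 149, 147 and 61.0 in Glt25d2, and overlapped (0.54, SE 0.39, or 0.11 without that array).

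With quantile normalization and without Glt25d2 replicate 3, Slc6a15 differed by -0.85 (SE 0.16), Slc6a7 by -0.75 (SE 0.21) and Slc6a17 by -0.07 (SE 0.16). In that fit 3 of the 8 genes were called higher in S100a10 and 2 lower, Slc6a15 and Slc6a7, beside 24.2% and 23.5% of all genes. Slc6a7, Slc6a15 and Slc6a17 thus differed in sign between the fits.

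The remaining members serve glia and other cells as well as neurons. Slc6a9 encodes the glycine carrier that clears glycine near NMDA receptors. Its intensity was 379, 564 and 443 in S100a10, against 220, 205 and 89.0 in Glt25d2, without overlap. The difference was 1.52 (SE 0.39), 0.76 (SE 0.32) after quantile normalization, 1.10 (SE 0.18) without Glt25d2 replicate 3 and 0.43 (SE 0.19) with both changes. Its second probe set had 99.4, 96.0 and 99.3 in S100a10 and lay under 50 on every Glt25d2 array, so that it was at least 1.96-fold higher in S100a10.

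Slc6a6 encodes the taurine carrier, which cells also use to balance their water content. Its brightest probe set had 780, 1156 and 878 in S100a10, against 611, 588 and 296 in Glt25d2, without overlap. The difference was 0.97 (SE 0.33), 0.37 (SE 0.30) after quantile normalization and 0.08 (SE 0.19) with Glt25d2 replicate 3 also left out. A second kept probe set had 268, 333 and 214 in S100a10, against 178, 222 and 21.3 in Glt25d2, and overlapped. The last 2 probe sets of Slc6a6 lay under 50 on all arrays.

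Slc6a8 encodes the creatine carrier. Its intensity was 1845, 2020 and 2174 in S100a10, against 878, 783 and 756 in Glt25d2. The groups were apart and each was tight, with means of 2013 ± 164 in S100a10 and 806 ± 64.2 in Glt25d2 (SD, n = 3 each). The difference of 1.32 (SE 0.11) was 0.85 (SE 0.13) after quantile normalization and 1.28 (SE 0.13) without Glt25d2 replicate 3. The other probe set, at 93.8, 97.2 and 111 in S100a10 and under 50 on every Glt25d2 array, was at least 2.01-fold higher in S100a10.

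**Figure D3:**
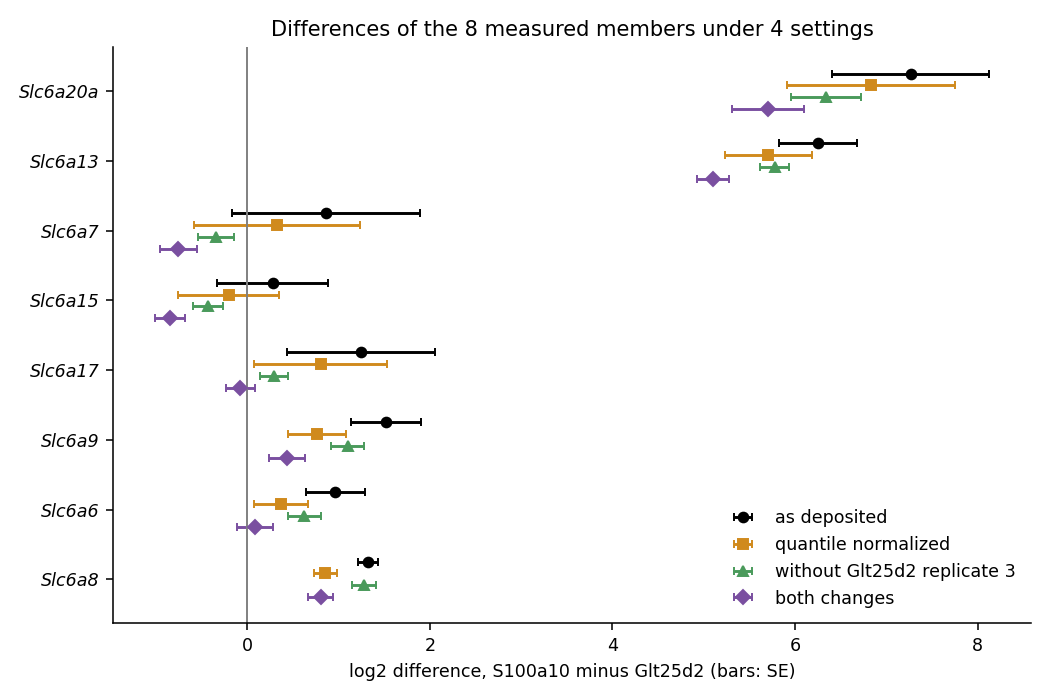
Log2 differences (S100a10 minus Glt25d2) of the 8 measured SLC6 genes with bars of 1 SE, as deposited, after quantile normalization, without Glt25d2 replicate 3, and with both changes. Slc6a20a and Slc6a13 stay at or above 5.10 in all of these, Slc6a8 stays between 0.80 and 1.32, and Slc6a7, Slc6a15 and Slc6a17 lie below 0 with both changes.

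Over the 8 genes, the median difference was 1.28, beside 0.56 for all genes. It was 0.78 after quantile normalization, beside -0.018, 0.86 without Glt25d2 replicate 3, beside 0.52, and 0.26 with both changes, beside -0.031. S100a10 arrays lay above all Glt25d2 arrays in 5 of the 8 genes and overlapped in 3, beside 55.9% of all genes with S100a10 above and 7.9% with Glt25d2 above. Without Glt25d2 replicate 3 the same 5 genes stood above, beside 66.5% of all genes. This share of all genes moves with the scaling of the deposited table.

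Within the Glt25d2 group, replicate 3 can be compared with the other arrays without using the contrast between lines. Slc6a7 lay 12.3-fold below the geometric mean of replicates 1 and 2, Slc6a17 7.33-fold, Slc6a20a 6.91-fold and Slc6a15 4.36-fold. Slc6a13 lay 2.72-fold below, Slc6a9 2.39-fold and Slc6a6 2.02-fold, while Slc6a8 lay 1.10-fold below. So 7 of the 8 genes lay over 2-fold below and 4 over 4-fold below, beside 14.5% and 8.40% of all genes. This is 1 array, so there is no replicate check of the pattern. For Slc6a20a and Slc6a13 the values compared are near background. Slc6a8 stood apart from the other members in this respect.

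**Figure D4:**
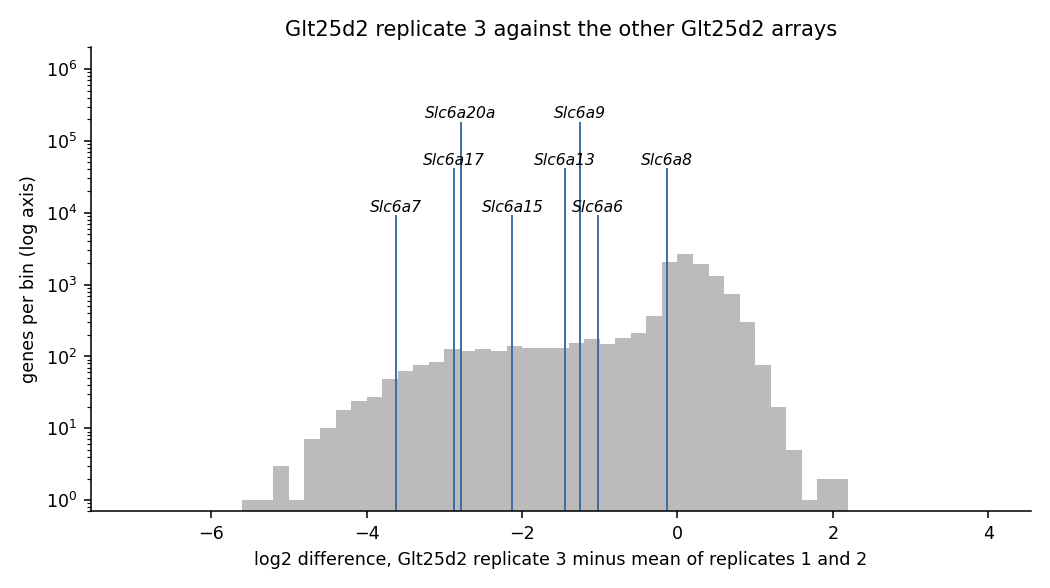
Histogram over 11821 genes of the log2 difference between Glt25d2 replicate 3 and the geometric mean of Glt25d2 replicates 1 and 2 (x axis), with the number of genes per bin on a log axis. Blue lines mark the 8 measured SLC6 genes. Slc6a7 lies farthest to the left at -3.62, and Slc6a8 at -0.13 lies at the main peak.

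Genes whose pattern over the 6 arrays is most like that of Slc6a20a were found by the root mean square difference of log2 values, each gene less its own mean. The 5 closest of 11820 genes were Fmod at 0.34, Islr at 0.39, Mgp at 0.50, Gjb6 at 0.53 and Pcolce at 0.70. Fmod encodes the matrix protein fibromodulin, Mgp the matrix Gla protein, Pcolce an enhancer of collagen processing, and Gjb6 a connexin of astrocytes. Fmod, the closest, had 12183, 18629 and 15945 in S100a10, against 189, 258 and 37.7 in Glt25d2. Slc6a13 came next, with 0.75. The distances rest on Slc6a20a, whose values chose the family, and on Glt25d2 values mostly near background, so their order is a description. Each of the 5 and Slc6a13 had its lowest value, as Slc6a20a did, in Glt25d2 replicate 3. That array is among the 6 that set the distances, so this shared low value comes with the choice.

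Markers of cell types that a cortex sample can hold were listed with earlier results of these data known. Counts of markers are to be read beside 44.7% of all genes higher and 4.59% lower. These shares were 18.7% and 19% after quantile normalization, and 16.6% and 31.8% after centring. Without Glt25d2 replicate 3 they were 55.9% and 6.33%, and with quantile normalization as well 24.2% and 23.5%. Of 16 measured meningeal fibroblast markers (17 listed) all 16 rose in S100a10, with a median difference of 6.63. Examples are the forkhead factor genes Foxd1, at least 165-fold higher, and Foxc2, at least 46.0-fold, and the matrix gene Ogn, at least 115-fold. Their summed intensity was 87091 to 91817 in S100a10 arrays and 975 to 7727 in Glt25d2 arrays, and 13 of the 17 listed were under 50 on every Glt25d2 array. Those of the 13 that were measured passed the limit only through S100a10 and so had to differ. Where both group means had to reach 50, 4 were tested and all 4 were higher, beside 3815 of 10277 genes. The part of meningeal fibroblasts in the values of Slc6a20a, Slc6a13 and Slc6a12 was not tested.

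Mural cell markers were split, with 5 of 6 measured (9 listed) rising, among them Myl9 at least 32.2-fold, and 1 falling. Of those rising, Pdgfrb, Myl9 and Tagln lay under 50 on every Glt25d2 array and so had to differ. Where both group means had to reach 50, 3 mural markers were tested, with 2 higher and 1 lower. Of all 10277 genes tested there, 3815 were higher and 422 lower. Kcnj8, Abcc9 and Notch3 of this list lay under 50 on every array. Of 8 markers of choroid plexus and ependyma 3 were measured and passed, Kcnj13 at least 18.3-fold higher, Clic6 higher by 0.56, and Ttr, while Folr1, Foxj1, Aqp1 and Otx2 lay under 50 on every array. Clic6 turned to -0.38 after quantile normalization and to -0.21 after centring, and 1 of the 3 passed after quantile normalization. Ttr, the transthyretin gene, was at 36.9, 45.2 and 261 in S100a10, against 11.4 in each Glt25d2 array, so that 1 array carried it above 50; it did not pass in 8 alternatives and was not measured without S100a10 replicate 3. Of 11 astrocyte markers 3 rose, with Gjb6 at 6.26 (SE 0.76) and Aldh1l1 at 2.23 (SE 0.13), and 2 fell, Gfap at least 1.98-fold and Aldoc by 1.07. Without Glt25d2 replicate 3 the counts were 7 higher and 3 lower, with Gjb6 at 5.43, and with quantile normalization as well they were 2 and 3.

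Neuronal markers were present in both lines. The 5 measured excitatory markers had summed intensities of 11322 to 11855 in S100a10 and 6548 to 9010 in Glt25d2. These sums are of deposited values and hold for their scaling. The vesicular glutamate transporter gene Slc17a7 rose by 2.12 (SE 0.45) and the transcription factor gene Neurod6 by 0.94 (SE 0.19), and the other 3 did not pass. After quantile normalization Slc17a7 was at 1.34 and Neurod6 at 0.68, with 2 of the 5 higher and 1 lower. After centring they were at 1.35 and 0.17, with 1 higher and 2 lower. Without Glt25d2 replicate 3, 3 were higher and 0 lower. Of 9 interneuron markers 4 rose, a share near the 44.7% of all genes, with Npy at 3.46, Sst at 2.88 and Lhx6 at 2.57 among them. Pvalb fell by 2.43. Without Glt25d2 replicate 3, Npy was at 2.59 and Sst at 1.97, and 5 of the 9 were higher and 2 lower. Without S100a10 replicate 2 or 3 the count of higher markers was 2, and Sst did not pass without any 1 of the S100a10 arrays.

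In the oligodendrocyte and endothelial lists the counts differed without Glt25d2 replicate 3. Of 8 oligodendrocyte markers, Olig2 was at least 1.78-fold higher in S100a10, and Ermn fell by 1.52 and Mbp fell by 0.95. Without it 2 of the 8 were higher and 4 lower. Of 5 endothelial markers measured (10 listed), Esam fell by 0.97, and 3 were lower after quantile normalization and 4 without that array. Pecam1, Cdh5 and Flt1 lay under 50 on every array. Of 4 microglial markers, Tmem119 was at least 3.99-fold higher, while P2ry12 and C1qa lay under 50 on every array. Of 3 markers of oligodendrocyte precursors, Pdgfra rose by 2.50 (SE 0.72), and it did not pass after quantile normalization (adjusted p = 0.0965).

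For the cargoes of the transporters, enzymes and receptors were counted in the same fit, to be read beside 44.7% of all genes higher and 4.59% lower. In proline metabolism, 3 of 5 measured genes rose, with 0 lower (limma, also 0 at an unadjusted p under 0.05). Aldh4a1 and Prodh, which break proline down, were at least 3.21-fold higher and higher by 2.32 (SE 0.12), with 1 equal Prodh value on all Glt25d2 arrays, and Aldh18a1, which makes it, rose by 1.13 (SE 0.13). After quantile normalization the counts were again 3 and 0, beside 18.7% and 19% of all genes.

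In creatine metabolism, Slc16a12, a creatine carrier of another family, was at least 28.7-fold higher in S100a10; it lay under 50 on every Glt25d2 array and passed the limit only through S100a10. Both enzymes of creatine synthesis rose, Gamt by 1.22 (SE 0.11) and Gatm by 1.13 (SE 0.21), and the mitochondrial creatine kinase gene Ckmt1 fell by 0.67 (SE 0.12). Gamt had 1 equal value on all Glt25d2 arrays, which understates its spread. After quantile normalization Gamt at 0.38 and Gatm at 0.52 did not pass, and 1 of the 5 measured genes was higher and 2 were lower. In taurine synthesis, Csad rose by 1.50 (SE 0.18) and Cdo1 by 1.13 (SE 0.24) of 3 measured genes, and Cdo1 did not pass after quantile normalization.

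Glycine genes were divided. Of 8 measured, Shmt2 rose by 0.64 and Gcsh by 0.49, Gldc of the glycine cleavage system fell by 0.96 (limma adjusted p = 0.0495), and 5 did not pass. On all Glt25d2 arrays Shmt2 had 1 equal value, which understates its spread. Shmt2 took a negative sign after quantile normalization and after centring, and Gcsh after centring. After quantile normalization 0 of the 8 were higher and 3 lower, and without Glt25d2 replicate 3, 2 were higher and 2 lower. With that array left out, the adjusted p of Gldc was 0.0523. Of 5 GABA genes 0 passed in limma, and 0 had an unadjusted p under 0.05, whereas 1 was lower after quantile normalization and 1 higher without Glt25d2 replicate 3.

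Neutral amino acid carriers of other families held 3 of 10 that rose. These were Slc1a5, at least 1.66-fold, Slc38a3, at least 4.21-fold, and Slc38a2. After quantile normalization the log2 difference of Slc38a3 was 1.57, which is below its bound. Slc38a2 rose by 2.58 (SE 0.61), or by 1.87 without Glt25d2 replicate 3. With that array left out, 5 of the 10 were higher and 1 was lower, beside 55.9% and 6.33% of all genes, and with quantile normalization as well 3 were higher and 5 lower, beside 24.2% and 23.5%. Of 2 measured genes of the response to osmotic stress, in which cells take up taurine and betaine, 0 passed in limma, and 0 had an unadjusted p under 0.05, whereas 1 was higher without Glt25d2 replicate 3 and 1 was lower with quantile normalization as well.

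Most of the rest of the family lay under the limit. Of 10 further SLC6 genes that were listed and have a probe set naming them alone, 1, Slc6a12, was measured. The carriers of noradrenaline (Slc6a2), dopamine (Slc6a3) and serotonin (Slc6a4), the second glycine carrier (Slc6a5), and Slc6a14, Slc6a16, Slc6a18, Slc6a19 and Slc6a20b lay under 50 on every array. Slc6a21, which was not on the list, did so too. Cltrn, which encodes an accessory protein of some of these carriers, also lay under 50 on every array.

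**Figure D5:**
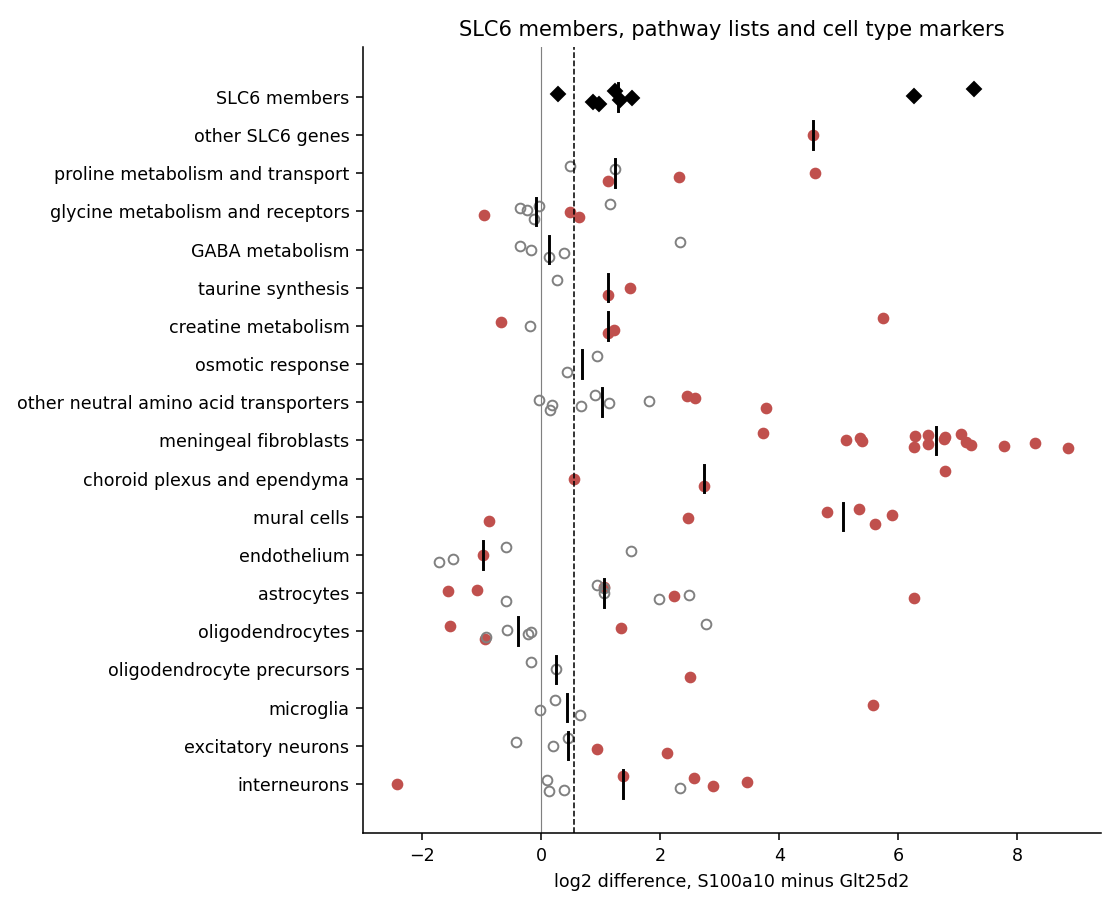
Log2 differences (S100a10 minus Glt25d2) of the measured genes in each list (rows). Black diamonds are the 8 SLC6 members, given as values only; in the other rows filled red circles passed the test and open circles did not. Short bars mark list medians and the dashed line the median of all genes at 0.56. The meningeal fibroblast genes, with a median of 6.63, lie in the range that also holds Slc6a20a, Slc6a13 and Slc6a12. Genes of other lists lie there too, among them Kcnj13 at 6.78, Gjb6 at 6.26, Myl9 at 5.90 and Slc16a12 at 5.75.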

How the data were processed

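Per the submitters' processing notes, GCRMA made the deposited intensity values, on a linear scale and with the version not given in the sources used here; per the labels, 15 ng of RNA was amplified in a kit of Affymetrix and labelled with biotin. Averaging of replicates is stated for the series, but the table has a column for each of the 6 arrays, and these were used. Of 45101 probe sets, 64 controls were left out, and 34945 name 1 gene. Intensities were taken to log2, and a probe set stayed if either group averaged 50 or more, a limit named in the series text. Each gene was represented by its brightest remaining probe set (mean log2). S100a10 minus Glt25d2 was fitted on 11821 genes with limma 3.58.1 (R 4.3.3; Benjamini-Hochberg), without a block, and tested on simulated data. The number of arrays limits the precision. A fold written "at least" sets 1 group's mean against 50 because all arrays of the other lay below it; it holds for the deposited scaling.

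Members, lists, tests and alternatives were chosen with earlier results of these data known. All members and both drivers are named, with up to 4 genes per list past the threshold with the largest differences; flanking genes were added after seeing the data. The alternatives were other filters, a pseudocount of 16, a floor of 50, 2 scalings, a replicate block, a trended prior, array weights, other treatment of probe sets and each array left out. RefSeq GRCm38.p6 gave promoters and gene order; the files name no build. Tables came from pandas 2.3.3 with numpy 2.4.6 (Python 3.11.15), and plots from matplotlib 3.10.9.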

Additional observations from a re-analysis of the deposited data

How the results depend on the processing

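Slc6a20a differed by 5.71 to 8.09 over the alternatives that kept it, against 7.27: it was 5.95 with values under 50 set to 50, 5.90 with array weights and 5.71 with quantile normalization without Glt25d2 replicate 3, and 6.34 to 8.09 with 1 array left out. Slc6a20a and Slc6a13 were not tested where both group means had to reach 50, which left 2 members called instead of 4. Members called numbered 3 to 5 with 1 array left out; Slc6a9 was not called without any 1 of the S100a10 arrays. Without a filter 6 other SLC6 genes were called instead of 1, all but Slc6a12 under 50 on every array.

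Over all genes, 5285 were higher and 542 lower. The counts were 8351 and 1645 without a filter, 2212 and 2247 after quantile normalization, 1958 and 3761 after centring, 2864 and 2784 after quantile normalization without Glt25d2 replicate 3, and 9405 and 934 over probe sets; array weights gave 892 lower. With 1 array left out, 4263 to 6606 were higher and 369 to 748 lower. The replicate block gave 327 lower genes, and deviations of same-numbered arrays correlated at -0.49, 0.27 and -0.26, so that the numbers do not pair the arrays.

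Of the named genes that are not members, Shmt2 turned to -0.13 after quantile normalization, to -0.13 after centring and to -0.066 after quantile normalization without Glt25d2 replicate 3. Clic6 turned to -0.38, -0.21 and -0.28 in these fits, and Gcsh to -0.28 after centring. The cause was not tested. Slc38a2 did not pass with any S100a10 array left out, and Gldc did not pass in 10 alternatives. Of 835 repeated results for 45 such genes, 772 kept direction and side of the threshold, 56 lost the threshold and 7 turned.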
